A study of Mus musculus with 16 samples.

Results

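The question addressed here was whether CD4+ T cells change their gene expression differently when they are cultured under Treg-inducing conditions without AIM2, a cytosolic sensor of double-stranded DNA. The quantity described throughout is the interaction of genotype and culture, that is, the log2 difference between Aim2-/- Treg and WT Treg minus the log2 difference between Aim2-/- Tn and WT Tn. It equals the response to culture in Aim2-/- cells minus the response in WT cells. All 16 libraries entered it, in 4 groups of 4, and 14669 of the 53090 genes in the files reached 10 counts in at least 4 libraries and were tested.

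WT Tn and Aim2-/- Tn were naïve CD4+ T cells, CD44low and CD62Lhigh, taken from spleen by immunomagnetic selection and not cultured. WT Treg and Aim2-/- Treg were such cells after 48 h with anti-CD3 and anti-CD28 antibodies, recombinant human TGF-beta and recombinant mouse IL-2. WT mice were C57BL/6, the AIM2-deficient mice were bred on that background, and animals were matched for age and sex. The ages, the sexes, and whether the 4 libraries of a group came from separate mice are not given in the sources used here, so the p-values measure only the spread between these libraries, which may be technical. In bulk RNA, fewer cells of a type and less RNA per cell cannot be told apart.

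AIM2 belongs to the PYHIN family, whose mouse members lie side by side on chromosome 1 and include several interferon-inducible nuclear proteins. In myeloid cells AIM2 builds an inflammasome on DNA, and in Treg cells it has been linked to metabolism. Activation through the T cell receptor and CD28 takes a naïve T cell out of quiescence, with growth, new metabolism and entry into the cell cycle, and TGF-beta with IL-2 then favours expression of Foxp3, the transcription factor that defines Treg cells.

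The libraries held between 22516424 and 34533316 expected counts, and 3 counts in a library corresponded to between 0.0869 and 0.133 CPM, the read count scaled to library depth. Within groups, pairs of libraries correlated at 0.9715 to 0.9904 (Pearson's r of log2 CPM across genes). Replicate 3 of Aim2-/- Tn stood apart in its ribosomal protein transcripts, which summed to 166200 CPM against 118700 to 146200 CPM in the other Aim2-/- Tn libraries and 120800 to 139300 CPM in WT Tn. Replicates 3 and 4 also stood below replicates 1 and 2 in Foxp3 after culture, in both genotypes. T cell identity genes were expressed in every library, with the CD3 gamma chain gene Cd3g at 368 to 588 CPM in Tn and 114 to 136 CPM in Treg. The Y chromosome gene Ddx3y was at 45.74 to 129.9 CPM in every library, so each held RNA of male cells.

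Aim2 itself was measured first. WT Tn libraries held 37.95, 36.95, 32.32 and 33.25 CPM and WT Treg libraries 35.67, 40.83, 43.33 and 39.95 CPM. Aim2-/- Tn libraries held 9.261, 6.776, 6.61 and 6.995 CPM and Aim2-/- Treg libraries 10.8, 9.95, 8.86 and 7.17 CPM. Both Aim2-/- groups lay below both WT groups with no overlap, and reads assigned to the gene remained in each Aim2-/- library. The interaction of Aim2 was 0.13 (log2, SE 0.18) (unadjusted p = 0.492, edgeR), the genotype difference being -2.25 (log2) before culture and -2.12 after it.

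Culture changed most genes, and nearly always in the same direction in both genotypes. In WT cells 11353 genes (77.4% of those tested) differed between Treg and Tn at an adjusted p under 0.05, 5582 of them higher (38.1%) and 5771 lower (39.3%) (edgeR's quasi-likelihood test, Benjamini-Hochberg adjustment). In Aim2-/- cells 11466 genes (78.2%) did so, 5659 higher (38.6%) and 5807 lower (39.6%). These 2 responses share no library. Of the genes called in both, 10708 moved in the same direction and 5 in opposite directions. The shared calls were 94.3% of the WT calls and 93.4% of the Aim2-/- calls.

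Across the 14669 genes, which are not independent replicates, the log2 responses of the 2 genotypes correlated at a Pearson's r of 0.9687 and a Spearman's rho of 0.9738. Among the 11823 genes with a mean of at least 1 CPM, r was 0.9826, and it rose with the level of expression from 0.939 below 1 CPM to 0.9955 above 100 CPM. The slope of the Aim2-/- response on the WT response was 0.9955 by least squares and 1.0286 by orthogonal regression. The median absolute response was 0.99 (log2) in WT and 1.02 in Aim2-/- cells, while the median absolute interaction was 0.15 and its median SE 0.23.

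**Figure D1:**
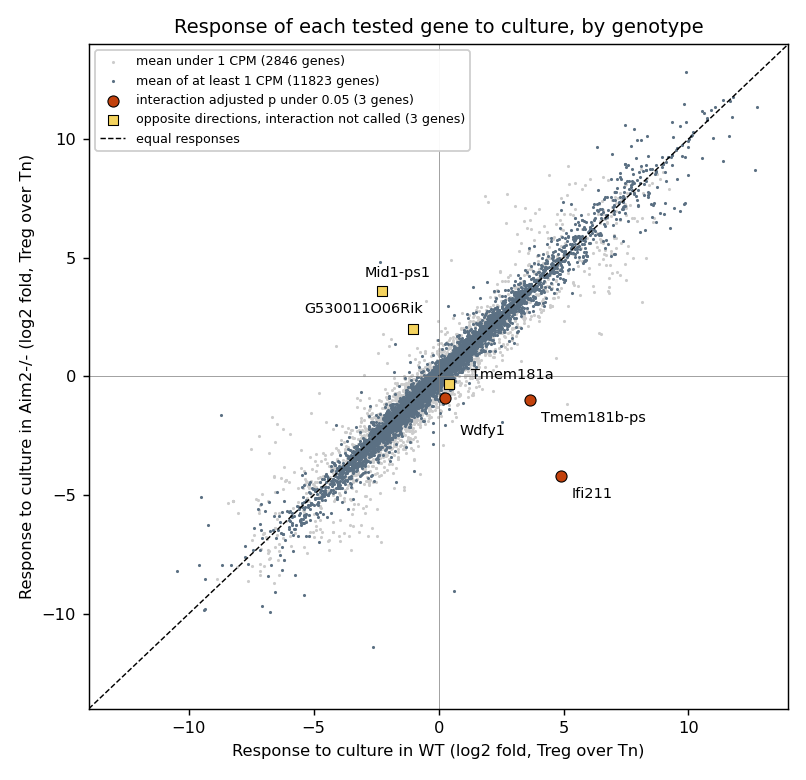
Log2 response to culture (Treg over Tn) of each of the 14669 tested genes in WT cells (x axis) and in Aim2-/- cells (y axis), with the dashed line marking equal responses. Nearly all points lie along the line, and the 3 genes called for the interaction (Tmem181b-ps, Ifi211 and Wdfy1) lie below it.

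The precision behind this was uneven. The 95% interval of the interaction lay wholly within a 2-fold difference for 9593 genes (65.4%) and within a 1.5-fold difference for 6541 (44.6%). Among genes of 10 to 100 CPM, 92.1% had an interval within 2-fold, and below 1 CPM 2.32% did. For most of the lowly expressed genes a 2-fold difference in response could therefore not be excluded at this depth.

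Genes called in only 1 genotype numbered 1393, of which 640 were called in WT and 753 in Aim2-/- cells. For 1311 of them (94.1%) the estimate in the other genotype had the same sign, and 131 had an unadjusted interaction p under 0.05. Of the 1393, 1 gene, Wdfy1, passed the adjusted threshold for the interaction. A call in one genotype and none in the other was thus, for the rest, not shown to be a difference between genotypes.

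For the interaction itself, 3 genes (0.0205% of those tested) passed an adjusted p of 0.05 by edgeR, and all 3 had a lower response in Aim2-/- cells. At an unadjusted p under 0.05 there were 512 genes (3.49%), 260 (1.77%) with a higher and 252 (1.72%) with a lower response in Aim2-/- cells. Without any interaction a share of about 0.05 is expected at that threshold, so these 512 genes are not an excess. The 3 genes were Tmem181b-ps, a transcribed pseudogene, Ifi211, a PYHIN gene next to Aim2, and Wdfy1, a gene for a FYVE and WD40 domain protein of early endosomes. With the replicate number within each state as a block, Tmem181b-ps alone stayed called. Ifi211 and Wdfy1 then each had an adjusted p of 0.0703 (edgeR).

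Tmem181b-ps (chr17:6438524-6467022, minus strand, GRCm38) is annotated as a transcribed unprocessed pseudogene of the transmembrane protein gene Tmem181a. WT Tn libraries held 0.173, 0.317, 0.169 and 0.273 CPM and WT Treg libraries 2.63, 2.29, 3.23 and 3.89 CPM. Aim2-/- Tn libraries held 19.8, 23.9, 17.5 and 22.9 CPM and Aim2-/- Treg libraries 9.25, 9.63, 11.8 and 11.3 CPM. The 4 groups did not overlap: the pseudogene was near the counting floor in WT Tn, rose in WT cells (3.66, log2, SE 0.24), and fell by 1.00 on the log2 scale (SE 0.16) from a high level in Aim2-/- cells. The interaction was -4.66 (SE 0.29, adjusted p = 3.08e-07, edgeR).

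The counts of this pseudogene rested in part on reads that match Tmem181a as well. The expected counts were not whole in any of the 16 libraries, which is how the counting tool marks reads shared between genes. Of the 4235 different 51-base windows in its GENCODE M21 transcripts, 51 bases being the read length, 49.2% also occur in transcripts of other genes, 44% in those of Tmem181a. The following window is shown because a read from it cannot be assigned to one of the genes. It covers bases 1017 to 1067 of the Tmem181a coding sequence, where the longest Tmem181b-ps transcript is identical over 454 bases, and no base is capitalised since none differs.
Tmem181a and Tmem181b-ps: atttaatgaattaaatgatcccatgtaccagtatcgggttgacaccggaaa

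Tmem181a (chr17:6256860-6308314, plus strand) held 14.1 to 18.2 CPM in WT Tn, 18.8 to 23.1 CPM in WT Treg, 18.5 to 28.5 CPM in Aim2-/- Tn and 18.0 to 21.6 CPM in Aim2-/- Treg. It was called in both responses in opposite directions, at 0.41 (log2) in WT and -0.34 in Aim2-/- cells, and its interaction of -0.75 (SE 0.18) had an adjusted p of 0.709 in edgeR. With the reads of Tmem181a, Tmem181b-ps and Tmem181c-ps summed, which removes the question of how reads were split, WT Tn held 14.28 to 18.49 CPM and Aim2-/- Tn 38.32 to 52.36 CPM. After culture the summed ranges were 22.65 to 26.35 CPM in WT and 27.59 to 30.86 CPM in Aim2-/- cells. The genotypes thus did not overlap in either state but stood closer after culture, and the interaction of the sum was -1.19 (SE 0.15, adjusted p = 0.00896, edgeR).

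Ifi211 (chr1:173896345-173913046, minus strand) encodes a PYHIN protein and lies inside the span of its neighbour Mndal on the same strand, 0.496 Mb from Aim2. WT Tn libraries held 0.173, 0.237, 0.380 and 0.375 CPM and WT Treg libraries 2.09, 5.79, 1.99 and 25.3 CPM. Aim2-/- Tn libraries held 5.85, 9.20, 6.99 and 6.57 CPM and Aim2-/- Treg libraries 0.453, 0.252, 0.539 and 0.297 CPM. The gene was low in WT Tn and in Aim2-/- Treg and high in the other groups, and replicate 4 of WT Treg stood far above its group. The responses were 4.90 (log2) in WT and -4.19 in Aim2-/- cells, and the interaction was -9.09 (SE 1.10, adjusted p = 0.00459, edgeR). The adjusted p was 0.039 or less without any one library, and 0.101 with limma-voom.

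Reads of Ifi211 were shared too. Of its 1731 windows, 72.4% occur in other genes, 44.5% in Ifi205, another PYHIN gene. Summed over the 13 PYHIN genes other than Aim2, the levels were 858.7 to 1148 CPM in WT Tn, 621.7 to 868.9 CPM in Aim2-/- Tn, 76.34 to 143.3 CPM in WT Treg and 45.55 to 67.5 CPM in Aim2-/- Treg. The family as a whole fell with culture in both genotypes, with responses of -3.36 and -3.70 (log2), and its interaction of -0.33 (SE 0.25) had an adjusted p of 1 in edgeR. Ifi211, at 9.20 CPM or less in every Tn library, was a small part of that sum before culture, so the sum does not bear on its own responses.

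Wdfy1 (chr1:79702262-79776143, minus strand) lies 93.7 Mb from Aim2. WT Tn libraries held 12.2, 11.2, 14.2 and 14.8 CPM and WT Treg libraries 14.7, 17.3, 14.8 and 16.5 CPM. Aim2-/- Tn libraries held 8.89, 10.7, 10.4 and 9.49 CPM and Aim2-/- Treg libraries 5.62, 5.64, 3.91 and 5.57 CPM. Aim2-/- libraries were below WT libraries in both states, with a wider gap after culture. The level fell in Aim2-/- cells by 0.93 on the log2 scale, while the WT response was 0.27 (adjusted p = 0.066, edgeR).

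The interaction of Wdfy1 was -1.20 (SE 0.19, adjusted p = 0.0355, edgeR). Its counts were whole in all 16 libraries, and 0.247% of its windows occur in other genes. It was close to the threshold: of the 16 fits without 1 library, 5 kept it called (those without replicate 1 of Aim2-/- Tn, replicates 2, 3 or 4 of Aim2-/- Treg, or replicate 4 of WT Tn), with an adjusted p between 0.0353 and 0.162, while the interaction stayed between -1.26 and -1.08.

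**Figure D2:**
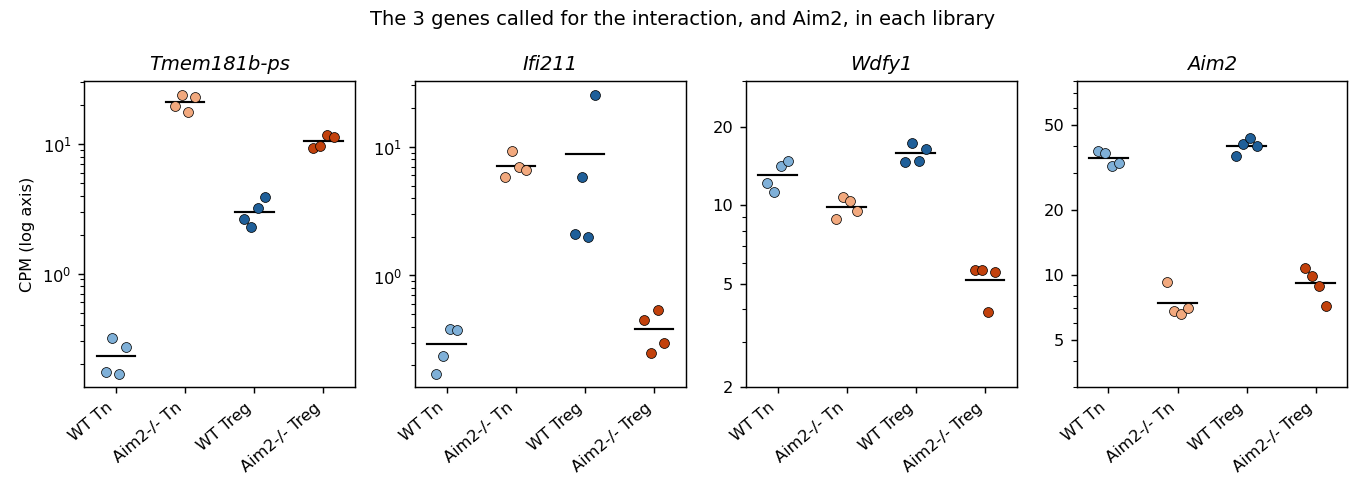
CPM on log axes in each of the 16 libraries for the 3 genes called for the interaction and for Aim2, with points as libraries and bars as group means. Tmem181b-ps and Ifi211 are near the floor in WT Tn and move in opposite directions with culture in the 2 genotypes, Wdfy1 is lowest in Aim2-/- Treg (3.91 to 5.64 CPM), and Aim2 is lower in Aim2-/- cells in both states.

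The genes called in both responses in opposite directions were Tmem181b-ps, Ifi211, Tmem181a, Mid1-ps1 and G530011O06Rik. Mid1-ps1, a pseudogene on the Y chromosome, held 2.54 to 3.62 CPM in WT Tn, 0.472 to 0.898 CPM in WT Treg and 0.303 to 0.981 CPM in 3 Aim2-/- Treg libraries. It was at 0 in 3 Aim2-/- Tn libraries and in 1 Aim2-/- Treg library. Its interaction was 5.86 (SE 1.13, adjusted p = 0.217 in edgeR and 0.000241 in DESeq2). Without 1 library it ran from 5.24 to 9.03 and was called in 1 of 16 fits. Of the windows of Mid1-ps1, 95.7% occur in other genes, 86% in Mid1. G530011O06Rik, a non-coding gene on the X chromosome, held 0.422 to 0.593 CPM in WT Tn, 0.203 to 0.259 CPM in WT Treg, 0.188 to 0.975 CPM in Aim2-/- Tn and 1.11 to 3.66 CPM in Aim2-/- Treg, with an interaction of 3.03 (SE 0.60, adjusted p = 0.217, edgeR). Its counts were not whole in 15 libraries, and 14.7% of its windows occur in other genes. Of the 5 genes, Tmem181b-ps and Ifi211 passed the adjusted threshold for the interaction in edgeR.

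The 20 genes of next smallest p-value at a mean of at least 1 CPM did not pass the adjusted threshold in edgeR, and their values are given as such. Efcab7, a component of the cilium complex that passes on Hedgehog signals, held 1.84 to 2.33 CPM in WT Tn and 5.43 to 6.19 CPM in WT Treg, whereas Aim2-/- Tn held 1.35 to 2.22 CPM and Aim2-/- Treg 1.33 to 1.96 CPM. WT Treg stood above the other groups, which overlapped. The WT response was 1.498 (log2) and that of Aim2-/- cells 0.07, and the interaction was -1.43 (SE 0.26, adjusted p = 0.182, edgeR). DESeq2, run as an alternative, gave an adjusted p of 0.000585 for the same gene, whose counts were whole in all libraries.

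Fcgr3, a low-affinity receptor for IgG that is used as a myeloid marker, held 0.76 to 1.40 CPM in WT Tn and 0.0741 to 0.174 CPM in WT Treg. It held 2.02 to 3.23 CPM in Aim2-/- Tn and 0.934 to 2.22 CPM in Aim2-/- Treg. The gene fell with culture in both genotypes, by 3.12 on the log2 scale in WT and by 0.66 in Aim2-/- cells, and the interaction was 2.46 (SE 0.47, adjusted p = 0.217 in edgeR and 0.025 in DESeq2). Its counts in WT Treg were 3, 6, 4 and 2, about the counting floor of 3, so the sizes of the WT fall and of the interaction rest on a group near that floor. Fcgr3 lies 2.35 Mb from Aim2. Its counts were not whole in 11 libraries, and 9.41% of its windows occur in Fcgr2b. The 16 myeloid markers in the files, of which 9 were tested, summed to 36.79 to 45.35 CPM in WT Tn, 36.65 to 52.81 in Aim2-/- Tn, 31.55 to 44.99 in WT Treg and 36.64 to 47.67 in Aim2-/- Treg, ranges that overlapped between genotypes in both states.

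Genes of chromosome 1 were frequent among these. Of the 23 genes in the first 2 sets, 9 lay on chromosome 1, which holds 6.16% of the tested genes: Ifi211, Wdfy1, Fcgr3, Mndal, Ppox, Nek2, Copa, Bpnt1 and Mfsd7b. Within 10 Mb of Aim2, 25 of 169 tested genes (14.8%) had an unadjusted interaction p under 0.05, against 12 of 260 (4.62%) at 10 to 50 Mb, 17 of 465 (3.66%) farther away, and 3.33% on all other chromosomes. The median absolute interaction was 0.23 (log2) within 10 Mb and 0.15 on the other chromosomes. A mutant allele and the chromosome segment that travels with it cannot be told apart in this design.

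Among the named genes within 3 Mb of Aim2, Mndal, the PYHIN gene that contains Ifi211, fell with culture more in Aim2-/- cells (-3.49, log2) than in WT cells (-2.44), with 162 to 210 CPM in WT Tn, 177 to 277 in Aim2-/- Tn, 27.6 to 49.0 in WT Treg and 17.2 to 23.0 in Aim2-/- Treg. Its interaction was -1.05 (SE 0.25, adjusted p = 0.709, edgeR). The counts of Mndal were not whole in any of the 16 libraries, and 19.2% of its windows occur in other genes, 7.79% in Ifi211. Ppox, an enzyme of heme synthesis, held 47.4 to 60.2 CPM in WT Tn, 41.4 to 53.4 in Aim2-/- Tn, 21.8 to 27.9 in WT Treg and 13.38 to 16.01 in Aim2-/- Treg, so that the genotypes overlapped before culture and not after it (interaction -0.63, SE 0.15, adjusted p = 0.709, edgeR). Copa, a subunit of the COPI coat of Golgi vesicles, held 270 to 275 CPM in WT Tn, 189 to 214 in Aim2-/- Tn, 342 to 357 in WT Treg and 295 to 337 in Aim2-/- Treg. For Copa the gap was wider before culture (interaction 0.33, SE 0.09, adjusted p = 0.734 in edgeR and 0.0369 in DESeq2).

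**Figure D3:**
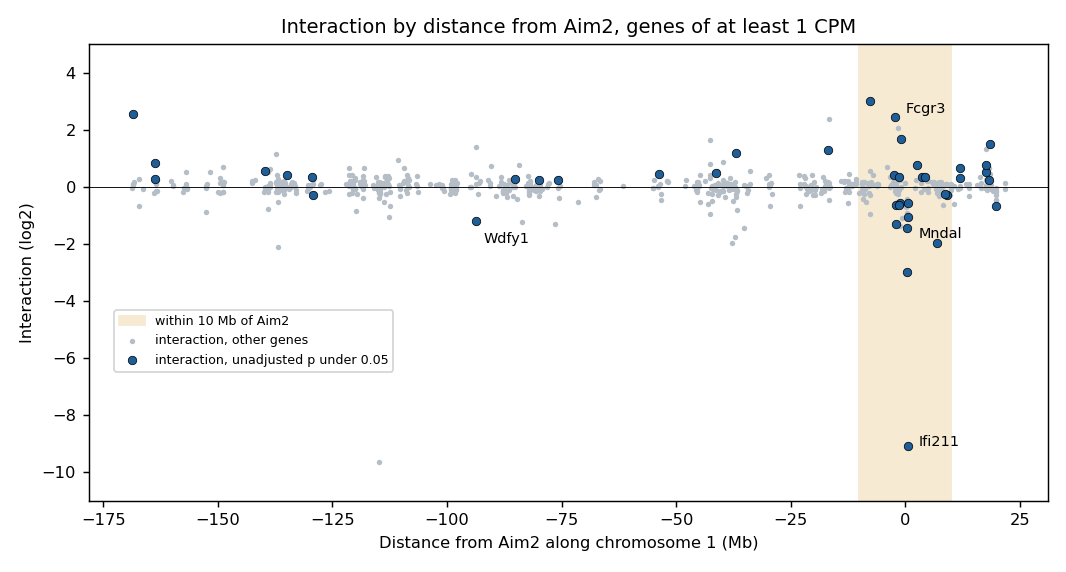
Interaction (log2, y axis) of genes of chromosome 1 with a mean of at least 1 CPM against their distance from Aim2 in Mb (x axis), with larger dark points for an unadjusted p under 0.05 and shading for 10 Mb on either side. The dark points are dense within the shaded range, where 14.8% of tested genes have an unadjusted p under 0.05, and Wdfy1 lies far outside it.

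Among the 20 genes were 6 with a role in cell division, put together here after their values were seen: Kif11, the kinesin that pushes spindle poles apart, Nek2, a centrosomal kinase, Ncaph, a condensin subunit, Prr11, a regulator of cell cycle progression, Chaf1a, a subunit of chromatin assembly factor 1, and Cdkn3, a phosphatase acting on cyclin-dependent kinases. Kif11 and Ncaph belong to the list of 30 mitosis and spindle genes. All 6 rose strongly with culture in both genotypes, and none passed the adjusted threshold for the interaction in the fit over all genes. Their interactions were positive, but the genes were picked by the p-value of that interaction, so their common direction is a description. The genotype difference that made up the interaction lay in the Tn libraries.

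Kif11 held 0.898, 1.11, 1.44 and 1.23 CPM in WT Tn and 0.675, 0.693, 0.601 and 0.788 CPM in Aim2-/- Tn, and then 151 to 155 CPM in WT Treg and 142 to 156 CPM in Aim2-/- Treg. Ncaph held 2.31, 2.37, 2.83 and 2.93 CPM in WT Tn and 1.88, 1.95, 1.80 and 1.87 CPM in Aim2-/- Tn, and then 107 to 116 and 106 to 114 CPM. Before culture the genotypes did not overlap for either gene, and after culture they did. The interaction was 0.70 (SE 0.16, adjusted p = 0.709, edgeR) for Kif11 and 0.46 (SE 0.12, adjusted p = 0.734) for Ncaph.

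The other members had the same form at lower levels. Prr11 held 0.546 to 0.726 CPM in WT Tn and 0.230 to 0.488 in Aim2-/- Tn, with an interaction of 0.92 (SE 0.21). Chaf1a held 1.19 to 2.01 CPM in WT Tn and 0.567 to 1.09 in Aim2-/- Tn, with an interaction of 0.87 (SE 0.22). Cdkn3 held 0.207 to 0.507 CPM in WT Tn and 0.0375 to 0.150 in Aim2-/- Tn, with an interaction of 1.39 (SE 0.38), its lowest library being under the counting floor. After culture the ranges of Prr11 (45.9 to 48.6 CPM in WT Treg and 44.4 to 49.2 in Aim2-/- Treg), Chaf1a and Cdkn3 overlapped between genotypes.

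Nek2 was listed under 2 gene records with identical counts in every library, between which the counting tool had split the reads. One record held 0.254 to 0.341 CPM in WT Tn and 0.075 to 0.131 CPM in Aim2-/- Tn. Its counts there were 2, 3, 3 and 4, about the counting floor of 3. The interaction of that record was 1.49 (SE 0.29, adjusted p = 0.734 in edgeR and 0.635 in DESeq2). The summed records held 0.6222, 0.5538, 0.5493 and 0.6822 CPM in WT Tn and 0.150, 0.1891, 0.2254 and 0.2299 CPM in Aim2-/- Tn. After culture they held 94.89 to 116.4 CPM in WT and 97.58 to 117.5 CPM in Aim2-/- cells. On the sum the interaction was 1.59 (SE 0.23) and passed the threshold (adjusted p = 0.0252, edgeR), so a fit with such records joined adds Nek2 to the called genes. Kif11 also had 2 such records, and its sum did not pass (0.72, SE 0.16, adjusted p = 0.506).

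**Figure D4:**
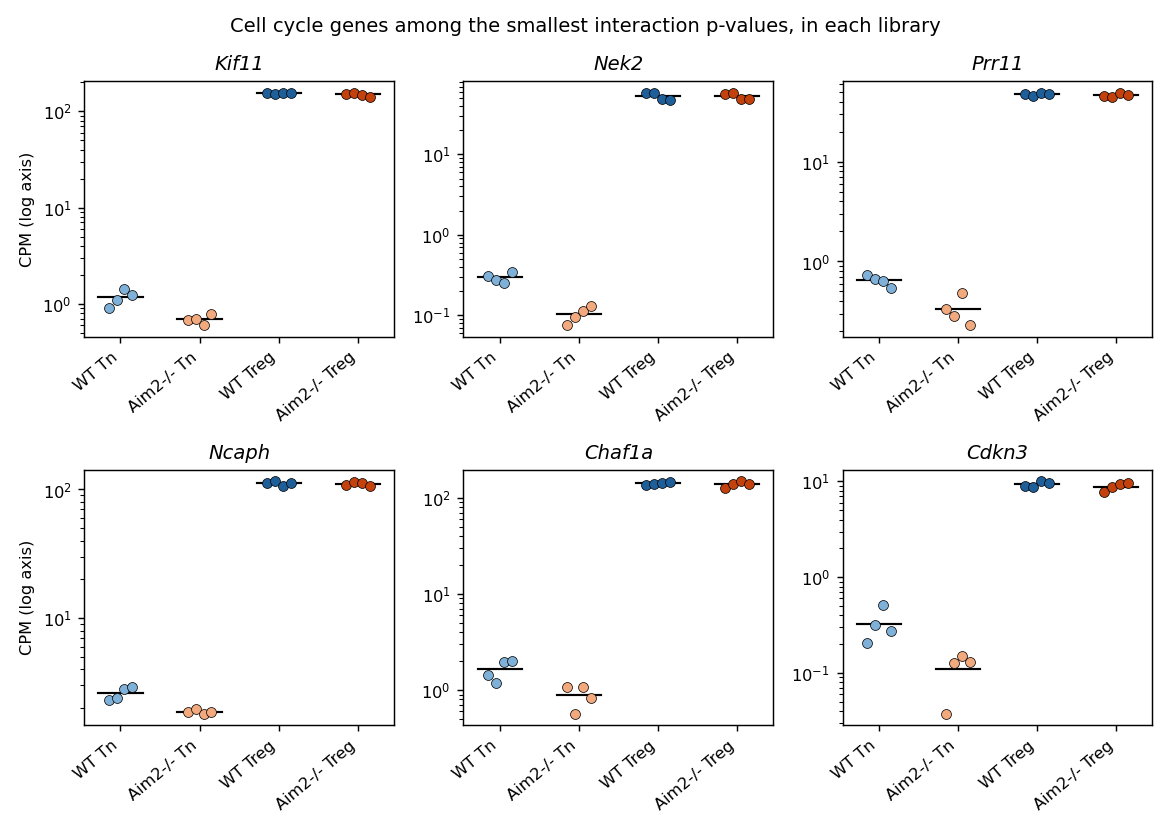
CPM on log axes of 6 genes of cell division in each of the 16 libraries, with points as libraries and bars as group means. In each panel the Treg groups coincide at a level far above Tn, and WT Tn lies above Aim2-/- Tn, for Kif11 at 0.898 to 1.44 against 0.601 to 0.788 CPM.

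The promoters of the pair with split records are shown because mitotic genes share promoter elements, the CCAAT box and the cell cycle genes homology region, here searched as TTTGAA or TTCGAA. Each sequence runs from 250 bases before to 50 bases after the start of the gene (RefSeq, GRCm38.p6), and capitals mark either motif on either strand.
Kif11 (chr19:37376132-37376431, plus strand): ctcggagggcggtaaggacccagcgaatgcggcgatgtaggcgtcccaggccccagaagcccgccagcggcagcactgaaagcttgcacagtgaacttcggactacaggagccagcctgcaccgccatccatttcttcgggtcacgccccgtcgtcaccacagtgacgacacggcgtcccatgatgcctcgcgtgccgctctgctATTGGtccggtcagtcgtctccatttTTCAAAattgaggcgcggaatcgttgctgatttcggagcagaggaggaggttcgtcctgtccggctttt
Nek2 (chr1:191821223-191821522, plus strand): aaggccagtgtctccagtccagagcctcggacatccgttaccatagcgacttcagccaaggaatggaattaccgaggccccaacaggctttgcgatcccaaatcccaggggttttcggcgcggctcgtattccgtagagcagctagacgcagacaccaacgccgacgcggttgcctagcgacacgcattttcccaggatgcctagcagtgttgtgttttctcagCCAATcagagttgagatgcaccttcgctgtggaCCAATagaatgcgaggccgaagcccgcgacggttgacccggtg
The Kif11 sequence held both motifs, which did not overlap, and the Nek2 sequence held CCAAT only. Promoters were found for 25 of the 30 genes of the mitosis list, and 20 of their 26 promoters (76.9%) held TTTGAA or TTCGAA, against 19.2% of all 32851 promoters of that length and 16.1% of those of the DNA replication list. CCAAT was found in 80.8% of the mitosis promoters, in 58.1% of those of the DNA replication list and in 37.4% of all promoters. Of the 6 genes above, Kif11, Prr11 and Cdkn3 held TTTGAA or TTCGAA, and 5, all but Ncaph, held CCAAT.

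Over the mitosis list as a whole, 29 of 30 genes rose in WT and 29 in Aim2-/- cells, where 38.1% and 38.6% of all tested genes rose. None was called for the interaction, and 4 had an unadjusted p under 0.05, 3 above 0 and 1 below it, where 3.49% of all tested genes did. It was above 0 for 25 of the 30 genes, with a median of 0.25 (log2) against a median of -0.0002 over all tested genes. The summed level of the list, in contrast, was 439.1 to 537.6 CPM in WT Tn and 455.5 to 523.8 CPM in Aim2-/- Tn, ranges that overlapped. The median was 0.06 within replicates 1 and 2 and 0.54 within replicates 3 and 4, and it was 0.10 without replicate 3 of WT Tn. Genes of DNA replication, all 32 of which rose in both genotypes, had a median interaction of 0.05 (0.11 without replicate 4 of WT Tn), with 20 above 0. Among them Pole, the catalytic subunit of DNA polymerase epsilon, had an interaction of 0.54 (SE 0.18) and Uhrf1, which guides maintenance methylation, 0.38 (SE 0.13), both with an adjusted p of 1 in edgeR.

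The Treg programme rose in both genotypes, and no difference between the responses was detected. Foxp3 held 2.00, 1.98, 2.96 and 4.02 CPM in WT Tn and 2.85, 2.55, 3.34 and 2.92 CPM in Aim2-/- Tn. After culture WT Treg held 560, 574, 496 and 278 CPM and Aim2-/- Treg 560, 523, 329 and 288 CPM. The libraries of the genotypes overlapped in both states, and after culture replicates 1 and 2 were above replicates 3 and 4 in each genotype. Foxp3 counts were not whole in any library, and 14.6% of its windows occur in Flicr. The responses were 7.44 and 7.19 (log2), and the interaction was -0.25 with a 95% interval from -1.12 to 0.62, so that a response lower by a little more than 2-fold in Aim2-/- cells was still within its bounds.

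Il2ra, the high-affinity IL-2 receptor chain CD25, rose by 8.71 (log2) in WT and 8.63 in Aim2-/- cells, to 1378 to 1513 and 1300 to 1464 CPM, with an interaction of -0.08 (SE 0.20). Il2rb, the receptor's beta chain, rose by 3.46 and 3.68 (interaction 0.21, SE 0.20). Ctla4, the inhibitory receptor for CD80 and CD86, was not called in either response, and its WT Tn libraries were split, at 79.59, 80.03, 12.84 and 17.63 CPM, with counts that were not whole in 13 libraries. Of the 14 tested genes of the Treg signature, 11 rose in WT and 11 in Aim2-/- cells, the same 11, where 38.1% and 38.6% of all tested genes rose, and none was called for the interaction, whose median was -0.05, or 0.12 without replicate 3 and -0.15 without replicate 2 of Aim2-/- Tn.

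Genes of the naïve and activated states were compared next. Of 20 genes of naïve T cell quiescence and homing, the same 18 fell in both genotypes, where 39.3% and 39.6% of all tested genes fell. Il7r, the receptor for the survival cytokine IL-7, fell in both genotypes, with a response of -5.97 (log2) in WT and -5.70 in Aim2-/- cells. Klf2, which keeps T cells quiescent and recirculating, held 254 to 297 CPM in WT Tn and 348 to 414 CPM in Aim2-/- Tn, which did not overlap, and 18.7 to 28.7 and 10.2 to 29.7 CPM after culture. Its interaction was -0.69 (SE 0.31, unadjusted p = 0.0438, adjusted p = 1, edgeR). None of 29 lineage and activation transcription factors and none of 19 effector cytokines had an unadjusted interaction p under 0.05, where 3.49% of all tested genes did. The interval of the interaction lay within a 2-fold difference for 17 of the 29 factors but for only 2 of the 19 cytokines. For most of the cytokines a 2-fold difference in response was therefore not excluded. Il9 and Il24 were at 0 in every Tn library of both genotypes, so their fitted interactions carry no meaning. The median interactions of the factors and of the cytokines, -0.04 and 0.12, changed sign with single libraries left out. For the transcription factors the median was 0.19 without replicate 1 of Aim2-/- Tn, and for the cytokines it was -0.09 without replicate 4 of Aim2-/- Treg. Among the transcription factors at a mean of at least 1 CPM, the WT response was largest for Fos, part of the AP-1 factor, which fell, with responses of -8.31 and -7.96 (log2).

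Metabolic genes were also compared, since AIM2 has been linked to metabolism in T cells. Of 75 nuclear genes for oxidative phosphorylation, 65 rose in WT and 61 in Aim2-/- cells, where 38.1% and 38.6% of all tested genes rose. None had an unadjusted interaction p under 0.05, against 3.49% of all tested genes. The interaction was below 0 for 63 of them, with a median of -0.13 (log2), which was -0.04 without replicate 3 of Aim2-/- Tn and -0.03 within replicates 1 and 2. For all 75 its 95% interval lay within a 2-fold difference. Cycs, cytochrome c, rose by 2.04 and 2.01. The summed level of the list was 5666 to 6117 CPM in WT Tn and 5655 to 7573 CPM in Aim2-/- Tn, the highest value being that of replicate 3, and 10450 to 10990 and 10500 to 11780 CPM in Treg. Of 26 genes of glycolysis and of glucose and lactate transport, 16 rose in WT and 17 in Aim2-/- cells, against the same 38.1% and 38.6% of all tested genes, with a median interaction of 0.06 (0.0046 without replicate 2 of Aim2-/- Tn). Hk2, the hexokinase induced on activation, rose by 6.24 and 7.24 (interaction 1.01, SE 0.59, adjusted p = 1, edgeR).

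The 31 genes of sterol and fatty acid synthesis had a median interaction of 0.19, above 0 for 23 genes. Fasn, fatty acid synthase, held 169 to 192 CPM in WT Tn and 124 to 150 CPM in Aim2-/- Tn, which did not overlap, and 866 to 984 and 821 to 970 CPM in Treg, which did. Its responses were 2.35 and 2.70, and the interaction was 0.35 (SE 0.11, unadjusted p = 0.00471, adjusted p = 1, edgeR). Acaca, acetyl-CoA carboxylase, had an interaction of 0.33 (SE 0.15, adjusted p = 1, edgeR), with Tn ranges that overlapped at 32.7 to 41.7 and 26.5 to 35.4 CPM. Of 26 genes of the ATF4 stress response and amino acid supply, 17 rose in WT and 19 in Aim2-/- cells, where 38.1% and 38.6% of all tested genes rose. Their median interaction of 0.23 was 0.03 within replicates 1 and 2, and it was 0.08 without replicate 3 of Aim2-/- Treg and 0.37 without replicate 4 of WT Treg. For Nupr1, a stress-induced chromatin protein, the fitted interaction carries no meaning, because all 4 WT Tn libraries were at 0 and Aim2-/- Tn libraries at 0 to 0.0985 CPM, under the counting floor. Nupr1 reached 18.1 to 32.7 CPM in WT Treg and 21.3 to 33.6 CPM in Aim2-/- Treg.

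Cytosolic ribosomal protein genes fell modestly with culture, 45 of 64 in WT and 49 in Aim2-/- cells, where 39.3% and 39.6% of all tested genes fell. The interaction was below 0 for 61 of the 64, though with a median of -0.08 and every 95% interval within a 1.5-fold difference. The median was 0.09 within the first pair of replicates and -0.21 within the second pair. Without replicate 3 of Aim2-/- Tn, whose high ribosomal share is given above, it was -0.0067. The 13 mitochondrially encoded genes had a median interaction of -0.08 (0.11 without replicate 2 and -0.19 without replicate 1 of Aim2-/- Tn), and the 10 T cell identity genes one of -0.11 (-0.03 without replicate 3 of Aim2-/- Tn).

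Interferon-stimulated genes fell with culture, 26 of 30 in WT and 27 in Aim2-/- cells, where 39.3% and 39.6% of all tested genes fell. The interaction was below 0 for 24 of the 30, and 2 had an unadjusted p under 0.05, where 3.49% of all tested genes did. Its median was -0.26, and -0.07 without replicate 3 of Aim2-/- Tn. Zbp1, a sensor of Z-form nucleic acids, held 82.6 to 95.4 CPM in WT Tn and 99.8 to 141 CPM in Aim2-/- Tn, and 23.5 to 28.5 and 16.68 to 24.98 CPM after culture (interaction -0.50, SE 0.18, adjusted p = 1, edgeR). Oas2, which makes the oligoadenylates that activate RNase L, held 29.0 to 41.7 and 34.8 to 59.1 CPM in Tn and 0.0371 to 0.550 and 0.0372 to 0.215 CPM in Treg. The summed level of the list was highest in replicate 3 of Aim2-/- Tn, at 2255 CPM against 1661 to 1761 CPM in the other Aim2-/- Tn libraries and 1466 to 1667 CPM in WT Tn.

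**Figure D5:**
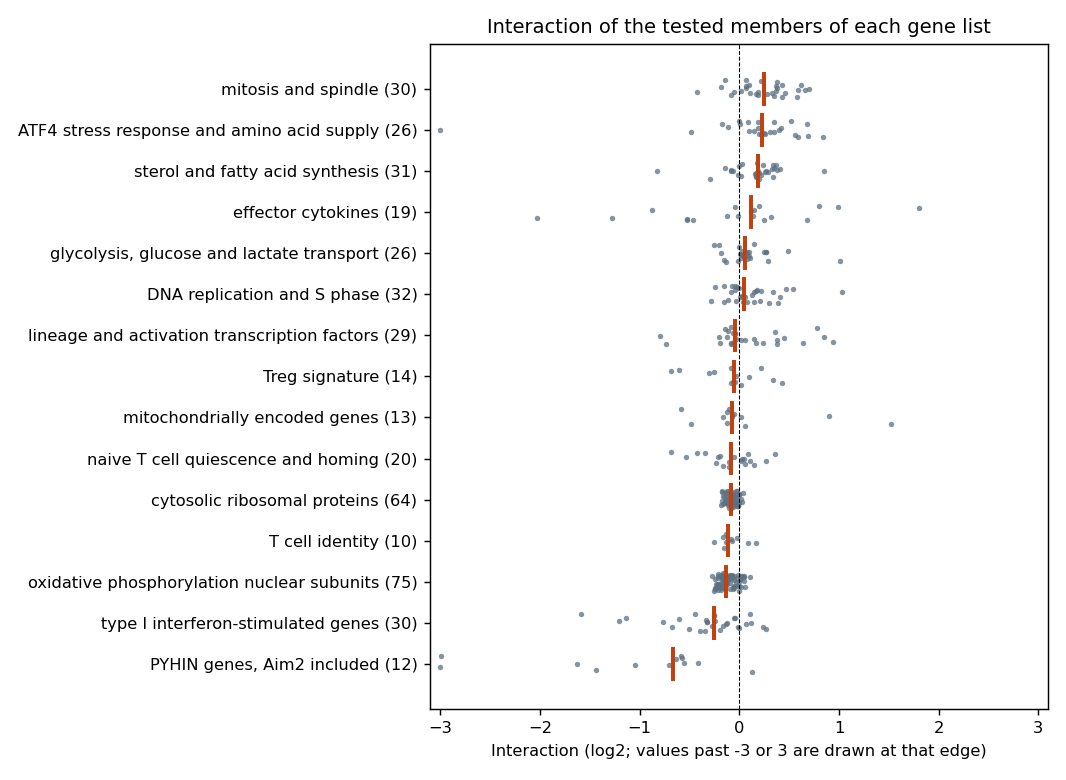
Interaction (log2, x axis) of each tested member of 15 gene lists, with points as genes, red bars as list medians and the number of tested members in brackets. Medians run from -0.67 for the PYHIN genes, Aim2 included, to 0.25 for mitosis and spindle genes, and all members of the ribosomal and oxidative phosphorylation lists have 95% intervals within 2-fold.

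The 12 tested PYHIN genes, Aim2 itself included, had a median interaction of -0.67, and Aim2 was the 1 gene above 0. Of the 12, 5 had an unadjusted p under 0.05 and 1, Ifi211, was called, against 3.49% and 0.0205% of all tested genes. The median was -1.05 without replicate 1 and -0.47 without replicate 4 of Aim2-/- Treg, and it was -0.54 within replicates 1 and 2 and -1.40 within replicates 3 and 4. Ifi213 held 115 to 135 CPM in WT Tn and 3.68 to 6.08 CPM in Aim2-/- Tn, and 1.26 to 2.84 and 0 to 0.0755 CPM after culture, so the genotypes differed in both states while the interaction was -0.64 (SE 0.64). Ifi209 held 108 to 195 CPM in WT Tn and 61.1 to 90.7 CPM in Aim2-/- Tn, and 2.15 to 4.52 and 0.438 to 1.70 CPM after culture (interaction -0.70, SE 0.45). Both genes fell with culture in both genotypes. Their counts, too, included reads shared with other genes in at least 14 of the 16 libraries.

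The largest interactions at a mean of at least 1 CPM and an unadjusted p under 0.05 came from 10 genes, of which 5 had an empty group. Besides Nupr1, every library of 1 group was at 0 for 4930486L24Rik and Gm18407 (WT Treg), Syt12 (Aim2-/- Tn) and Gm20634 (Aim2-/- Treg), so their fitted values depend on the prior count and are not given. Ighg3, an immunoglobulin constant region gene expressed by B cells, held 0 to 0.311 CPM in WT Tn, 0.158 to 5.58 CPM in Aim2-/- Tn, 0.121 to 1.30 CPM in WT Treg and 0.302 to 1.26 CPM in Aim2-/- Treg, with an interaction of -4.46 (SE 1.52, adjusted p = 1, edgeR). The 12 B cell markers in the files, of which 5 were tested, summed to 440.7 to 548.3 CPM in WT Tn and 480.2 to 597.3 CPM in Aim2-/- Tn, most of it Ighm, and to 123.8 to 149.1 and 140.2 to 170.3 CPM in Treg. The part of B cell RNA in the Ighg3 values was not tested. Gm37988, a gene predicted from sequence, held 0.641 to 10.3 CPM in WT Treg, 2.30 to 6.26 CPM in Aim2-/- Treg, 1.69 to 5.05 CPM in WT Tn and 0 to 0.937 CPM in Aim2-/- Tn, with an interaction of 2.56 (SE 1.15, adjusted p = 1, edgeR). Of its windows, 88.3% occur in other genes, 68.6% in Lypla1, and its counts were not whole in 15 libraries.

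Markers of other cells were low or overlapped between genotypes, with an exception in erythroid genes. The 8 erythroid markers in the files, hemoglobin genes among them, summed to 1.503 to 4.112 CPM in WT Tn and 5.579 to 8.112 CPM in Aim2-/- Tn, which did not overlap, and to at most 0.3336 CPM in either Treg group, where 3 of the 8 were at 0 in every WT Treg library and 5 in every Aim2-/- Treg library. The median interaction of the 4 tested was -1.02. The 8 markers of CD8 T and NK cells in the files, of which 5 were tested, summed to 42.52 to 70.13 CPM in WT Tn and 43.94 to 65.84 CPM in Aim2-/- Tn and to under 7 CPM in Treg, with a median interaction of -0.04 (-0.19 without replicate 3 of WT Tn and 0.09 without replicate 4 of Aim2-/- Treg). The medians were -0.24 for the B cell markers (0.12 without replicate 3 of Aim2-/- Tn, -0.73 without replicate 2 of WT Tn), 0.17 for the myeloid markers (0.02 without replicate 4 of WT Tn, 0.45 without replicate 2 of WT Treg) and 0.09 for 4 sex-linked genes (0.0016 without replicate 3 of Aim2-/- Tn). Lists of so few genes of low level are described by these values alone.

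Among genes of small unadjusted interaction p, which were no excess over all genes, the genotype difference was more often the larger one in the naïve state. Of the 410 genes with an unadjusted p under 0.05 and a mean of at least 1 CPM, 351 had the larger genotype difference in Tn and 59 in Treg. These genes were chosen by the interaction itself, so the counts are a description. Over all tested genes, 1822 (12.4%) had an unadjusted genotype p under 0.05 in Tn and 284 (1.94%) in Treg, while 50 (0.341%) and 38 (0.259%) were called at an adjusted p under 0.05. Cacnb3, a calcium channel subunit, had such a form, with 3.56 to 4.39 CPM in WT Tn and 5.29 to 8.02 CPM in Aim2-/- Tn against 12.3 to 19.1 and 10.4 to 17.9 CPM in Treg (interaction -0.98, SE 0.25). Mpp7, a scaffold protein of cell junctions, held 4.99 to 5.43 CPM in WT Tn and 2.85 to 3.19 CPM in Aim2-/- Tn against 14.9 to 15.6 and 12.7 to 15.3 CPM (interaction 0.64, SE 0.14, adjusted p = 0.374 in edgeR and 0.0369 in DESeq2). Zcwpw1, a histone reader, held 17.09 to 20.01 and 24.9 to 29.0 CPM in Tn against 9.32 to 14.2 and 8.51 to 11.7 CPM (interaction -0.74, SE 0.18).

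The remaining genes of the 20 were as follows. Ube3a, a ubiquitin ligase, held 38.8 to 46.6 CPM in WT Tn and 26.6 to 29.5 CPM in Aim2-/- Tn, and its Treg ranges overlapped (interaction 0.54, SE 0.15). Bpnt1, a nucleotidase of sulfate metabolism, held 18.0 to 27.0 and 10.2 to 14.3 CPM in Tn, 19.4 to 22.9 and 18.61 to 21.03 CPM in Treg (interaction 0.67, SE 0.18). Mfsd7b, a heme exporter, held 21.9 to 37.5 and 12.7 to 15.1 CPM in Tn, 27.4 to 34.6 and 22.02 to 28.42 CPM in Treg (interaction 0.77, SE 0.21). For these 3 genes the Tn ranges did not overlap between genotypes and the Treg ranges did. Cnga1, a cyclic nucleotide-gated channel, held 9.34 to 11.8 and 9.86 to 15.8 CPM in Tn and 0.174 to 0.405 and 0.0674 to 0.180 CPM in Treg, close to the counting floor (interaction -1.55, SE 0.42).

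The size of the interaction also varied with the size of the response. Among the 253 genes at a mean of at least 1 CPM that fell over 16-fold, averaged over genotypes, the median interaction was -0.30 (log2), with quartiles of -0.61 and 0.08. Among the 439 genes that rose over 16-fold it was 0.08, and among the 6448 that stayed within 2-fold it was 0.02. The strongly falling genes thus had, at the median, a somewhat larger fall in Aim2-/- cells. Of the 253 genes, 20 (7.91%) had an unadjusted interaction p under 0.05, where 3.49% of all tested genes did. The share was similar, 37 genes (8.43%), among the 439 that rose over 16-fold.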

How the data were processed

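RNA was extracted from 16 samples of mouse CD4+ T cells and sequenced as stranded mRNA libraries with reads of 51 bases. The authors aligned reads with STAR and counted them with RSEM on GRCm38 (GENCODE m15 or an Ensembl 94 annotation, both being named), whose tool versions are not given in the sources used here. The deposited values are expected counts per gene, which can be fractional where reads match several genes, and 1 file was given per sample with no replicates pooled.

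Expected counts were rounded, and a minimum of 10 counts in 4 or more of the 16 libraries left 14669 genes. Group means were fitted over all libraries in edgeR 4.0.16 (R 4.3.3) with TMM normalization and robust quasi-likelihood tests, two-sided, with Benjamini-Hochberg adjustment over all tested genes and a threshold of 0.05. Library sizes were 22516424 to 34533316 counts, and intervals, at 95%, rest on the spread between libraries. CPM values use TMM-scaled library sizes. SE denotes the standard error of a log2 value, derived from the quasi-likelihood test statistic. For some genes of few counts in Tn, such as Nek2 and Prr11, the p-value of the test is larger than the SE implies. No library pair agreed within sampling noise, so each was counted once. The fit was tested on simulated data. The responses to culture share no library, and the replicate number within a state cannot be used as a block for them.

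Genes were named by rule: those called for the interaction, the next 20 by p-value at a mean of at least 1 CPM, the 5 largest in each direction at an unadjusted p under 0.05, those called in opposite directions, Aim2 and Foxp3, and examples from 20 gene lists, 2 by smallest p and 2 by largest WT response. The members and lists were chosen with earlier results of these data known. Positions are those of GENCODE M21, which matched 98.7% of gene records. Sequence windows came from its transcripts, aligned with Biopython 1.88. limma-voom (limma 3.58.1), which is the study's own test, DESeq2 1.42.0, RLE normalization, other filters, replicate blocks, subsets of the replicates (1 and 2, or 3 and 4) and each library left out were alternatives. Summing near-identical genes and keeping only genes of whole counts were added after the data were seen.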

Additional observations from a re-analysis of the deposited data

Results flagged for a closer look

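The interactions of Tmem181b-ps (-4.66, log2), Ifi211 (-9.09) and Wdfy1 (-1.20) are listed because the genotype effect differed between Treg and Tn by the test of that difference.

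Single libraries stood apart from the other 3 of their group by Dixon's criterion in 14 of 127 groups examined, where chance gives about 1 in 20 for normally distributed values. For the called genes these were Ifi211 in replicate 4 of WT Treg, at 25.3 CPM against 1.99 to 5.79, and Wdfy1 in replicate 3 of Aim2-/- Treg, at 3.91 CPM against 5.57 to 5.64. Aim2 was at 9.26 CPM in replicate 1 of Aim2-/- Tn against 6.61 to 6.99. In replicate 4 of WT Treg, Nupr1 was at 18.1 CPM against 30.3 to 32.7, Cacnb3 at 12.3 against 17.9 to 19.1 and Mpp7 at 14.9, below the 15.5 of the next library. In Aim2-/- Treg, Mndal was at 17.2 CPM in replicate 4 against 22.3 to 23.0, Efcab7 at 1.33 in replicate 2 against 1.93 to 1.96, and 4930486L24Rik at 0.359 in replicate 2, with the other libraries at 0. In WT Tn, Copa was at 275 CPM in replicate 3 against 270 to 271, Cnga1 at 11.8 in replicate 3 against 9.34 to 9.75, and Ighg3 at 0.311 in replicate 1 against 0 to 0.0341. Mid1-ps1 was at 0.150 CPM in replicate 1 of Aim2-/- Tn and Gm20634 at 0.202 in replicate 1 of WT Treg, with the other 3 libraries of each group at 0. Where 3 libraries are at 0, any value above 0 meets the criterion, so the chance rate does not apply.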

How the results depend on the processing

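No interaction of the 23 genes called or named next by p-value changed sign under any alternative: 566 values kept their side of the threshold, 20 lost it and 7 gained it. Tmem181b-ps was called in 24 of 24 alternatives, Ifi211 in 21 of 24 (adjusted p = 0.101 with limma-voom and 0.398 within replicates 3 and 4) and Wdfy1 in 10 of 27. Alternatives that did not test a gene as its own record are not counted for it. The number of genes called for the interaction, 3 in the fit reported, was 10 with DESeq2 (5 of them higher in Aim2-/- cells), 0 with at least 10 counts in all 16 libraries (369 at an unadjusted p under 0.05, edgeR) and 0 among genes of whole counts only (295 unadjusted, edgeR). The last 2 fits did not test Tmem181b-ps and Ifi211, which their filters remove. In these 2 fits Wdfy1 had an adjusted p of 0.0686 and 0.0638. limma-voom called 2. In the edgeR fits without 1 library the number of called genes ranged from 2 to 5, the 5 being without replicate 1 of Aim2-/- Tn. The culture responses ranged without 1 library from 10946 to 11345 calls in WT and from 11053 to 11494 in Aim2-/- cells, and among genes of whole counts, with fewer genes tested, were 6996 and 7041. Pearson's r between the responses was 0.9642 to 0.9690 without 1 library, 0.9594 with DESeq2, 0.8166 with no filter, 0.9886 with at least 10 counts in all libraries, 0.9789 among genes of whole counts, 0.9349 within replicates 1 and 2 and 0.9289 within replicates 3 and 4.

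Replicate numbers gave no pairing that the sources state. Same-numbered WT and Aim2-/- libraries correlated in their deviations at 0.0234 to 0.3017 in Tn and -0.0134 to 0.3954 in Treg. The mean was 0.1353 in Tn and 0.2408 in Treg, against -0.0449 and -0.0805 for libraries of unlike number. In each state 2 of 4 numbers matched best with their own. The fit reported has no block, and whether same-numbered libraries share an animal or a day was not tested. With the replicate number within each state as a block, 1 gene was called (964 unadjusted, edgeR), with an adjusted p of 0.0703 for both Ifi211 and Wdfy1. With the number across states as a block, 2 genes were called. Depth limits what can be said of genes under 1 CPM, whose median SE was 0.73 (log2).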
